A study of Homo sapiens with 6 samples.

Results

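The Wnt pathway genes described here are the 19 Wnt ligand genes, the 10 Frizzled receptor genes and 24 further genes of Wnt reception and beta-catenin signalling, chosen by symbol from a table of 58735 genes. All 53 were present, and the 38 with at least 60 counts over the 6 libraries are reported by value. RNA was counted in VCaP cells, an established human prostate cancer cell line with the TMPRSS2-ERG fusion gene, all kept in DMEM with 10% FBS. The cells had been infected stably with a short hairpin RNA against NEDD9 (shNEDD9, 3 libraries) or with a non-targeting hairpin (shNTC, 3 libraries). The labels call the libraries biological triplicates. They do not give the hairpin sequence or number, nor say whether the triplicates stem from separate infections, so p-values cover the spread between libraries and no more.

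Wnt ligands are secreted lipid-modified proteins that bind a Frizzled receptor together with the co-receptors LRP5 or LRP6. In the absence of a ligand, a destruction complex of APC, axin and the kinases GSK3B and casein kinase marks beta-catenin (CTNNB1) for degradation. Bound receptors recruit Dishevelled proteins and halt the complex, so that beta-catenin enters the nucleus and activates target genes with TCF and LEF factors. Other ligand and receptor pairs act without beta-catenin, on cell polarity and movement. Both branches have been studied in prostate cancer.

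Total counts ran from 5956486 to 9902002 in shNEDD9 and from 3217276 to 7492244 in shNTC. NEDD9, the gene targeted by the hairpin, was 2.62-fold lower in shNEDD9, at 136 to 138 CPM (counts scaled to a common library size) against 339 to 365 CPM in shNTC. Of the markers of prostate luminal and VCaP cells, KLK2 (11242 CPM in shNEDD9 and 9403 CPM in shNTC) and KLK3 (3.36-fold) were called higher, and 6 were called lower, among them FOLH1 (3.21-fold), KRT8 (2.69-fold), TMPRSS2 (1.54-fold) and HOXB13 (1.52-fold). Of the 18 markers of basal, stromal, endothelial and immune cells, 5 had 60 or more counts. The 7 stromal markers summed to 47.5 to 54.6 CPM in shNEDD9 and 26.8 to 34.6 CPM in shNTC, and the 4 immune markers to 1.34 to 1.65 CPM in shNEDD9 and 15.2 to 20.4 CPM in shNTC. The 3 basal markers summed to 2.72 to 3.82 CPM in shNEDD9 and 2.15 to 2.83 CPM in shNTC, and the 4 endothelial markers to 1.61 to 2.35 CPM in shNEDD9 and 1.34 to 2.83 CPM in shNTC. LUM made up most of the stromal sum and LYZ of the immune sum, while KRT5, CD3E, CD68 and CDH5 were at 0 counts. LUM was 2.37-fold higher, whereas COL1A1, the other stromal marker that was tested, was called lower (1.46-fold). The stromal sum therefore followed LUM and not the stromal markers as a set. The part of these markers in the results below was not tested. In bulk RNA, a change in the share of cells that express a gene and a change in RNA per cell cannot be told apart.

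The largest increases among the Wnt pathway genes were those of FZD8, WNT8B and FZD4, and the largest decreases those of WNT5B, AXIN2 and FZD7. CTNNB1 itself was 1.84-fold lower in shNEDD9, and LEF1 was 1.84-fold higher. Of the 38 reported genes, 37 passed the filter on low counts and were tested. At an adjusted p under 0.05 (edgeR quasi-likelihood test, Benjamini-Hochberg adjustment over all 13958 tested genes), 8 were higher and 18 lower, and 11 were not called. This is 70.3% of them, where 71.4% of all tested genes were called (35.5% higher and 35.9% lower). The share called was thus near that of all genes. Past 2-fold, 4 were higher and 5 lower, which is 24.3% against 16.9% of all tested genes (7.67% higher and 9.22% lower). For 25 of the 37 no library of one group reached the range of the other, as for 71.8% of all tested genes. The median log2 fold change of the 37 genes was -0.295 and that of all tested genes 0.004. The median size of the log2 fold change, whatever its sign, was 0.66 for the 37 genes and 0.42 for all tested genes.

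**Figure D1:**
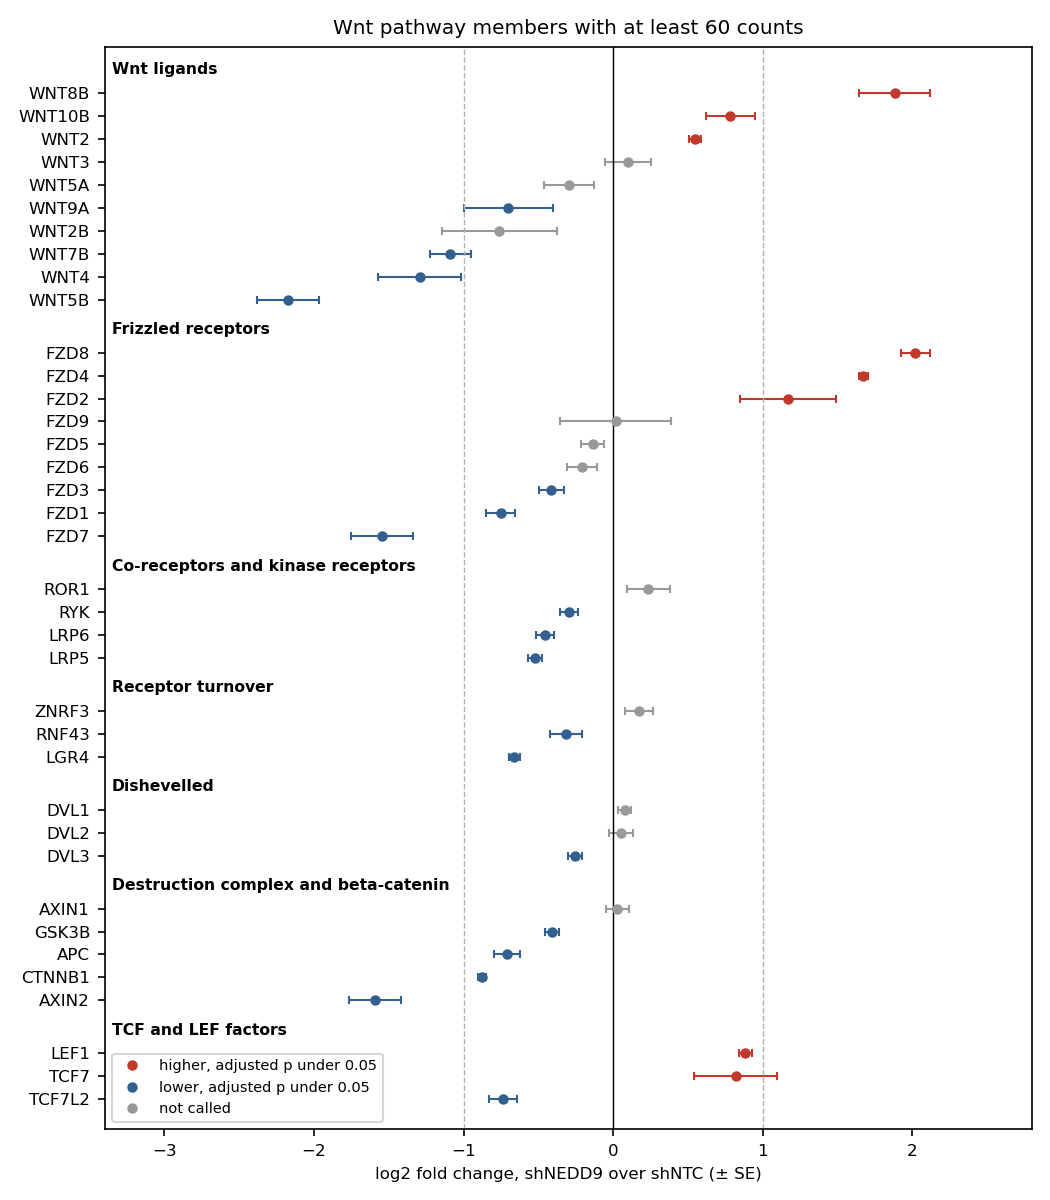
Log2 fold changes of shNEDD9 over shNTC (horizontal axis, ± SE) for the 37 tested Wnt pathway genes, grouped by role and sorted within each role; dashed lines mark a 2-fold difference and colours the call at an adjusted p under 0.05. Wnt ligands and Frizzled receptors spread to both sides. Of the 5 genes of the destruction complex and beta-catenin, 4 were lower and none higher, where 35.9% of all tested genes were lower and 35.5% higher. Of the 16 further tested genes of the destruction complex and beta-catenin turnover, not drawn here, 3 were higher and 6 lower.

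Because the 3 genes with the largest increases code for a ligand and a pair of receptors, the 250 bases before their RefSeq transcript starts are shown for comparison, on the strand of each gene (GRCh38.p14). They are chr10:35642297-35642546 on the minus strand for FZD8, chr11:86955396-86955645 on the minus strand for FZD4 and chr10:100462759-100463008 on the plus strand for WNT8B. Capitals mark the letters CCAAT read on the opposite strand (ATTGG).
FZD8: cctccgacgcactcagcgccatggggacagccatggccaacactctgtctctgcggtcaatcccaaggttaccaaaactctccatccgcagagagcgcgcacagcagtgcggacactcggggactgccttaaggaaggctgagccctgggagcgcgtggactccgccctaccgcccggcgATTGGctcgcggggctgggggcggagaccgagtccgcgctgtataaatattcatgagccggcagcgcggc
WNT8B: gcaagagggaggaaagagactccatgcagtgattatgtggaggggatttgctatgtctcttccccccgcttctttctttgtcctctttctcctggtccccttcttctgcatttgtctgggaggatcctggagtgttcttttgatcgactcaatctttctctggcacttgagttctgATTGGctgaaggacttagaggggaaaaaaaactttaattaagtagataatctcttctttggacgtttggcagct
FZD4: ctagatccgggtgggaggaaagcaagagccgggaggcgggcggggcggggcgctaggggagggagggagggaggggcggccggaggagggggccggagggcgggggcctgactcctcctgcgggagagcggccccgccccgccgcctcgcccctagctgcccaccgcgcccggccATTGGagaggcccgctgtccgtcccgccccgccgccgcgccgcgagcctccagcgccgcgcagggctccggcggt
Each of the 3 windows held 1 such match, beginning 70 bases before the start in FZD8, 74 in WNT8B and 75 in FZD4. In either orientation, the letters also began 91 bases before the start in FZD1 and 81 and 132 in LGR4, which both fell. In DVL2, which was not called, they began 84 bases before the start. No share over all promoters was taken for the position, so the like positions are not read as a trait of the 3 genes. CCAAT in either orientation was chosen after these sequences were read, and it occurred in 12 of the 28 reported genes with an entry in the RefSeq table (42.9%) and in 35.0% of the promoters of tested genes and 33.0% of all 27305 promoters. The 3 windows differed in base composition, with 65.2% G and C in FZD8, 45.2% in WNT8B and 80.8% in FZD4. The letters bound by TCF and LEF proteins (CTTTGAT or CTTTGAA or CTTTGTT or CTTTGTA, both strands) occurred in 0 of these 28 windows, in 7.3% of the promoters of tested genes and in 12.1% of all promoters. A match is a description of letters and not a binding site, and its absence speaks only of these 250 bases. AXIN2, FZD7, FZD2 and WNT7B were among the reported genes without an entry, so their promoters were not searched.

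Among the Wnt ligands, WNT2 was the most abundant and rose, 3 rarer ligands fell by more than 2-fold, and WNT8B rose. Of the 10 ligand genes with at least 60 counts, 3 rose, 4 fell and 3 were not called. Of all tested genes, 35.5% rose and 35.9% fell, so these counts at any fold do not set the ligands apart. Past 2-fold, 1 of the 10 rose and 3 fell, where 7.67% of all tested genes rose and 9.22% fell. The ligands are few, and whether they differ from all genes past 2-fold was not tested. WNT2, a ligand known from lung development (ENSG00000105989, GRCh38 chromosome 7, 117275451 to 117323289, minus strand), stood at 181, 167 and 168 CPM in shNEDD9, against 124, 112 and 113 CPM in shNTC. All 3 shNEDD9 libraries lay above all shNTC libraries (1.46-fold, log2 fold change 0.55, SE 0.04, edgeR adjusted p = 7.79e-36). WNT8B, a ligand known from forebrain development (ENSG00000075290, chromosome 10, 100463041 to 100483744), had 6.04, 8.39 and 9.08 CPM in shNEDD9, against 2.02, 1.57 and 2.66 CPM in shNTC. The groups were well apart despite the low level, and the increase was 3.69-fold (log2 fold change 1.88, SE 0.24, edgeR adjusted p = 5.51e-15). WNT10B, which signals through beta-catenin (chromosome 12, 48965340 to 48971763), reached 8.56, 11.6 and 12.2 CPM in shNEDD9, against 6.05, 6.60 and 6.73 CPM in shNTC. It too did not overlap between the groups, although the shNEDD9 libraries were more spread out (log2 fold change 0.78, SE 0.17, edgeR adjusted p = 4.87e-06).

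WNT5B, a ligand mostly studied in signalling without beta-catenin (ENSG00000111186, chromosome 12, 1529891 to 1647243), had 2.35, 2.67 and 2.22 CPM in shNEDD9, against 10.6, 12.6 and 10.3 CPM in shNTC. It showed the largest decrease of all reported genes, 4.51-fold (log2 fold change -2.17, SE 0.21, edgeR adjusted p = 4.16e-25), and every shNEDD9 library was below every shNTC library. WNT7B, an epithelial ligand (ENSG00000188064, chromosome 22, 45920362 to 45977129), had 8.56, 7.88 and 8.17 CPM in shNEDD9, against 15.6, 21.7 and 17.2 CPM in shNTC. Its shNTC libraries spread more than its shNEDD9 libraries, and the groups did not overlap (2.13-fold lower, log2 fold change -1.09, SE 0.14, edgeR adjusted p = 8.38e-15). WNT4, which acts in the development of the female reproductive tract and kidney, had 2.01, 2.03 and 1.51 CPM in shNEDD9, against 3.90, 4.71 and 5.01 CPM in shNTC. It was 2.45-fold lower without overlap (log2 fold change -1.29, SE 0.28, edgeR adjusted p = 5.90e-06). WNT9A, known from joint development, had 1.85, 2.03 and 2.02 CPM in shNEDD9, against 3.23, 1.89 and 3.91 CPM in shNTC. Here shNTC replicate 2 lay among the shNEDD9 libraries, and the call (log2 fold change -0.70, SE 0.30, edgeR adjusted p = 0.0249) was lost in 6 of 14 alternatives, with adjusted p-values of 0.0103 to 0.2 over all of them. WNT9A lost its call with DESeq2 (adjusted p = 0.154), without a count filter (edgeR adjusted p = 0.0678), and without shNEDD9 replicate 1 (0.0541), shNEDD9 replicate 3 (0.0571), shNTC replicate 1 (0.0683) or shNTC replicate 3 (0.2).

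The remaining ligands were not called. WNT3 averaged 10.2 ± 1.63 CPM in shNEDD9 and 9.62 ± 1.29 CPM in shNTC (SD, n = 3 each). WNT5A, the close relative of WNT5B, averaged 7.28 ± 0.596 CPM in shNEDD9 and 9.08 ± 1.95 CPM in shNTC, a log2 fold change of -0.30 (edgeR adjusted p = 0.0995). It was called without shNTC replicate 3 (log2 fold change -0.49, edgeR adjusted p = 0.0145, range over the alternatives 0.0145 to 0.708). WNT2B averaged 1.09 ± 0.293 CPM in shNEDD9 and 1.89 ± 0.407 CPM in shNTC without overlap (edgeR adjusted p = 0.0613), and was called without shNEDD9 replicate 3 (0.0451, range over the alternatives 0.0451 to 0.274). Of WNT2B, 21.2% of the merged exon length is shared with exons of ST7L on the opposite strand, so reads of both genes may have been dropped or mixed.

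The other 9 ligand genes held fewer than 60 counts. WNT16 had 0 counts in every shNEDD9 library, against 23, 3 and 6 counts in shNTC. WNT7A, the paralogue of WNT7B, also had 0 counts in every shNEDD9 library, against 2, 5 and 2 counts in shNTC. Neither passed the filter, and 3 counts, taken as the floor of detection, equal 0.303 to 0.503 CPM in shNEDD9 libraries. WNT10A had 5, 3 and 8 counts in shNEDD9 and 5, 2 and 5 counts in shNTC. WNT11 had 5 counts over shNEDD9 and 9 over shNTC, and WNT1, WNT3A and WNT6 had 1 to 3 counts over all libraries. WNT8A and WNT9B were at 0 counts throughout. There are 4 pairs of neighbouring ligand genes. WNT10B, WNT9A and WNT3 passed 60 counts while their neighbours WNT1 (6.7 kb away), WNT3A (59.2 kb away) and WNT9B (46 bases away) had 0 or 1 count. Of WNT6 and WNT10A, 6.1 kb apart, neither reached 60 counts (3 and 28 over all libraries).

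Levels of different ligands were compared per kilobase of merged exon length (RPKM). By this measure WNT2 made up 72.3 ± 2.66% of the summed ligand level in shNEDD9 and 61.5 ± 2.04% in shNTC (SD, n = 3 each). In shNEDD9 it was followed by WNT10B (7.75 ± 1.445%), WNT8B (7.01 ± 1.46%) and WNT3 (4.44 ± 0.715%), and the ranges of WNT10B and WNT8B overlapped. In shNTC the next were WNT7B (8.57 ± 1.57%), WNT5B (6.18 ± 0.688%), WNT10B (5.86 ± 0.499%) and WNT3 (5.28 ± 0.679%), and the ranges of the last 3 overlapped. The summed level of the 19 ligands was 53.4, 52.7 and 52.8 RPKM in shNEDD9, against 43.4, 41.9 and 40.8 RPKM in shNTC. Without WNT2 the sum was 14.7 ± 1.31 RPKM in shNEDD9 and 16.2 ± 0.76 RPKM in shNTC. The remainder held more WNT8B and WNT10B and less WNT7B and WNT5B.

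**Figure D2:**
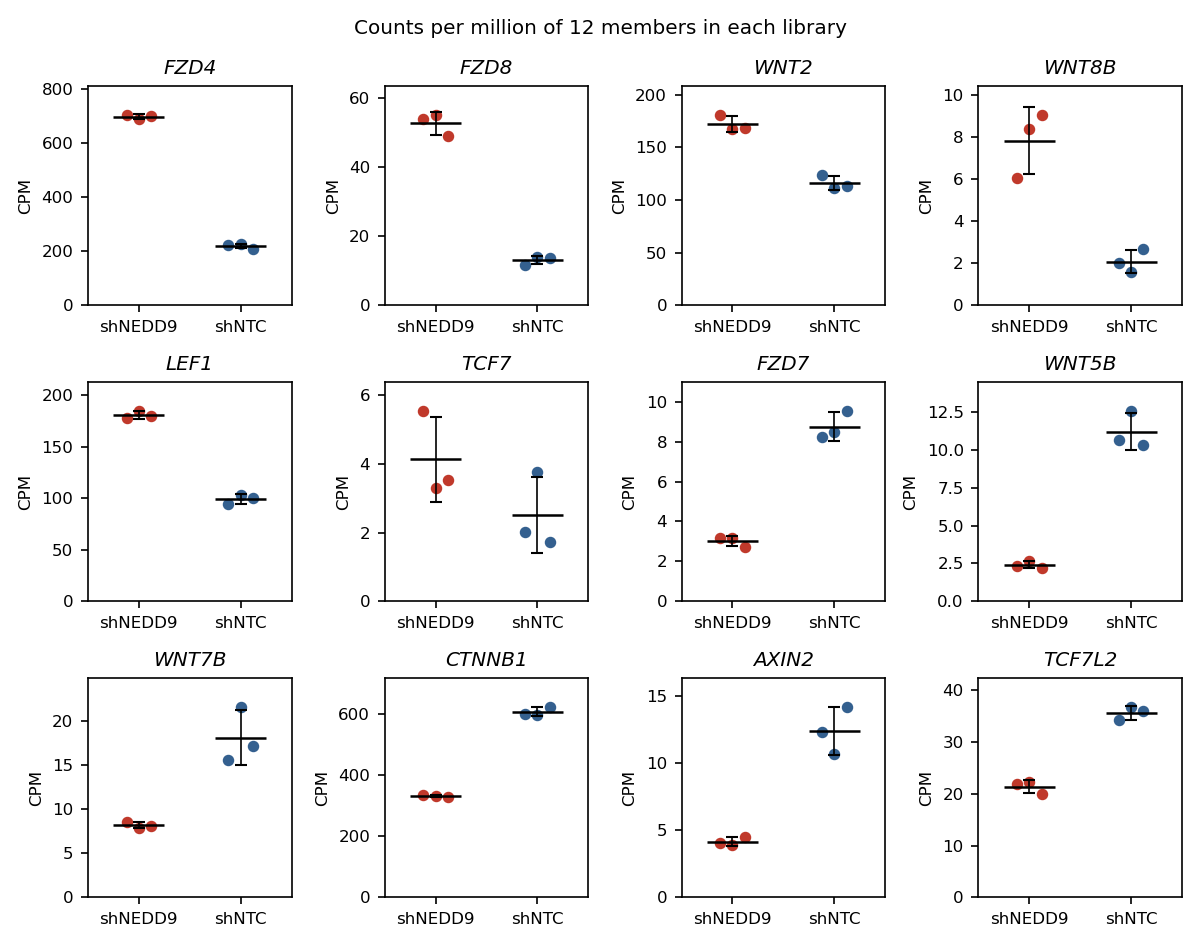
CPM of 12 Wnt pathway genes in each library (points; vertical axes start at 0), with shNEDD9 left of shNTC and the mean ± SD of 3 libraries as bars. FZD4, FZD8, WNT2, WNT8B and LEF1 were higher in every shNEDD9 library, TCF7 overlapped between the groups, and FZD7, WNT5B, WNT7B, CTNNB1, AXIN2 and TCF7L2 were lower in every shNEDD9 library.

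The Frizzled receptors, which bind the ligands through an extracellular cysteine-rich domain, moved in both directions, as did all tested genes (35.5% rose and 35.9% fell). FZD4, FZD8 and FZD2 rose, FZD7, FZD1 and FZD3 fell, and FZD5, FZD6 and FZD9 were not called. FZD4, a receptor for Wnt ligands and for the unrelated ligand Norrin (ENSG00000174804, chromosome 11, 86945679 to 86955391, minus strand), had 705, 688 and 701 CPM in shNEDD9, against 224, 225 and 209.9 CPM in shNTC. The libraries of each group were close together and the groups far apart (3.19-fold higher, log2 fold change 1.67, SE 0.03, edgeR adjusted p below 1e-300). Of the merged exon length of FZD4, 18.9% is shared with PRSS23, a protease gene on the opposite strand that went the other way (log2 fold change -1.52). Since the strand setting of the counting was not given, reads of this shared stretch may have been dropped or mixed. FZD8 (ENSG00000177283, chromosome 10, 35638249 to 35642278, minus strand) had 53.9, 55.2 and 48.9 CPM in shNEDD9, against 11.7, 14.1 and 13.6 CPM in shNTC. This was the largest increase of all reported genes, 4.06-fold, with no overlap (log2 fold change 2.02, SE 0.10, edgeR adjusted p = 8.37e-96). FZD2 had 3.36, 4.32 and 2.52 CPM in shNEDD9, against 1.21, 2.83 and 1.10 CPM in shNTC. Here shNTC replicate 2, the shallowest library, reached into the shNEDD9 range, and the log2 fold change of 1.17 had an SE of 0.32 (edgeR adjusted p = 4.49e-04).

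FZD7, a receptor known from epithelial and stem cell Wnt signalling (ENSG00000155760, chromosome 2, 202034587 to 202038445), had 3.19, 3.18 and 2.72 CPM in shNEDD9, against 8.20, 8.48 and 9.55 CPM in shNTC. It was 2.92-fold lower with no overlap (log2 fold change -1.54, SE 0.21, edgeR adjusted p = 4.30e-13). FZD1, its close relative, had 18.6, 18.8 and 20.4 CPM in shNEDD9, against 31.7, 32.0 and 34.1 CPM in shNTC. It was 1.68-fold lower, again without overlap (log2 fold change -0.75, SE 0.10, edgeR adjusted p = 1.36e-14). FZD2, the third gene of this close-knit subfamily, thus differed in direction from FZD1 and FZD7, and the difference between them was not tested. FZD3, a receptor of axon guidance and planar cell polarity, averaged 29.04 ± 0.339 CPM in shNEDD9, against 41.3, 37.4 and 36.6 CPM in shNTC (log2 fold change -0.42, SE 0.08).

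FZD5, the closest relative of FZD8, averaged 36.1 ± 0.775 CPM in shNEDD9 and 40.0 ± 1.29 CPM in shNTC. Its groups did not overlap, but its log2 fold change of -0.14 missed the threshold (edgeR adjusted p = 0.109). FZD6 averaged 20.5 ± 2.07 CPM in shNEDD9 and 22.9 ± 4.36 CPM in shNTC (edgeR adjusted p = 0.0582), and was called without shNTC replicate 2 (log2 fold change -0.29, edgeR adjusted p = 0.00931, range over the alternatives 0.00931 to 0.367). FZD9 stood near the floor at 1.70 ± 0.614 CPM in shNEDD9 and 1.39 ± 0.837 CPM in shNTC, and the sign of its log2 fold change of 0.02 turned in 4 alternatives. FZD10, with 62 counts, did not pass the filter and averaged 1.18 ± 0.253 CPM in shNEDD9 and 1.89 ± 0.697 CPM in shNTC.

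Per kilobase, FZD4 led the family in both groups, at 94.5 ± 1.27 RPKM in shNEDD9 and 29.8 ± 1.16 RPKM in shNTC (SD, n = 3 each). FZD8 took the next place in shNEDD9 at 13.1 ± 0.823 RPKM, and in shNTC it was below FZD5, FZD6 and FZD1 at 3.26 ± 0.319 RPKM. FZD5 and FZD6 could not be ordered beyond their spread in either group, at 5.38 ± 0.116 and 5.05 ± 0.510 RPKM in shNEDD9 and 5.97 ± 0.193 and 5.64 ± 1.07 RPKM in shNTC. FZD4 made up 74.8 ± 1.05% of the summed Frizzled level in shNEDD9 and 52.8 ± 1.496% in shNTC. The sum was 127, 126 and 126 RPKM in shNEDD9, against 57.4, 56.2 and 55.4 RPKM in shNTC. Without FZD4 it was 31.9 ± 1.42 RPKM in shNEDD9 and 26.6 ± 0.78 RPKM in shNTC, so that most of the higher sum was FZD4.

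**Figure D3:**
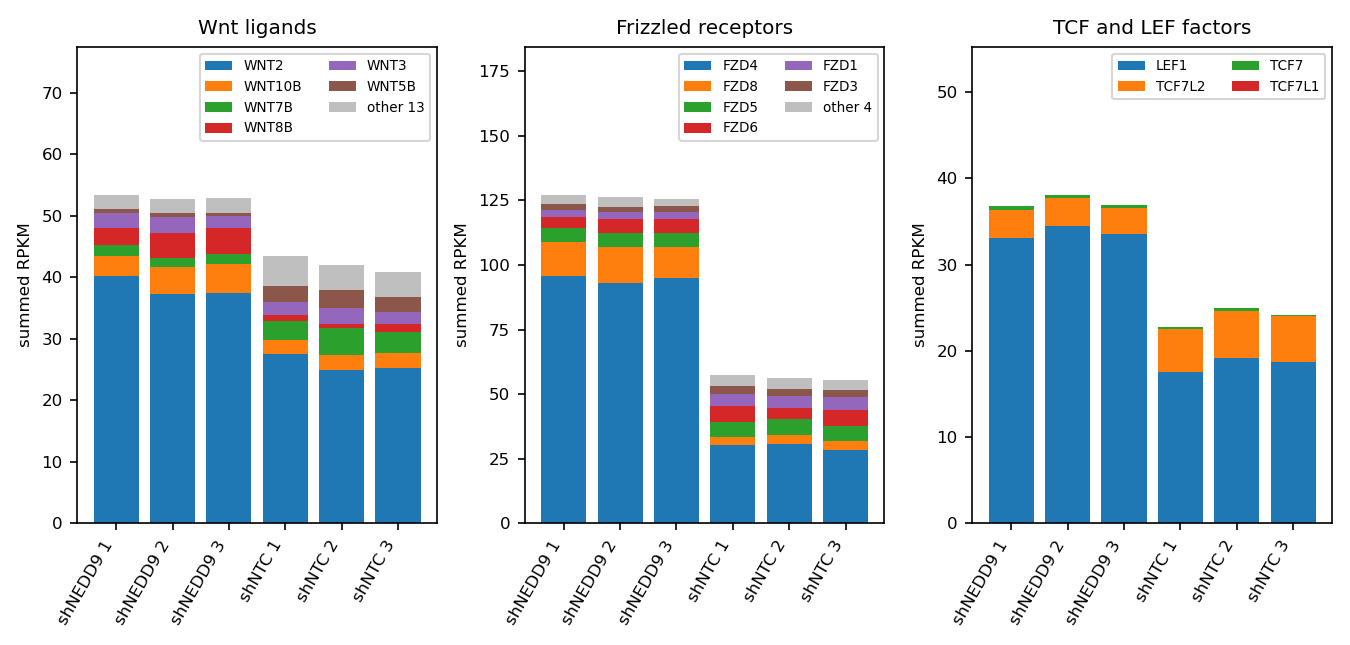
Summed RPKM (vertical axis) of the Wnt ligands, the Frizzled receptors and the TCF and LEF factors in each library, stacked by gene, with shNEDD9 libraries left of shNTC libraries. WNT2, FZD4 and LEF1 form the largest block of their family in each of the 6 libraries, and the Frizzled sums of 126 to 127 RPKM in shNEDD9 stand above those of 55.4 to 57.4 RPKM in shNTC.

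The co-receptors fell while the Frizzled sum was higher. LRP5 (chromosome 11, 68312609 to 68449275) had 96.7, 90.6 and 91.7 CPM in shNEDD9, against 135, 128 and 134 CPM in shNTC. LRP6 (chromosome 12, 12116025 to 12267012) had 54.2, 55.1 and 56.3 CPM in shNEDD9, against 77.3, 78.5 and 72.9 CPM in shNTC. Neither gene overlapped between the groups, and both decreases were modest (LRP5 1.44-fold, log2 fold change -0.52, SE 0.05, and LRP6 1.37-fold, log2 fold change -0.46, SE 0.06, edgeR adjusted p = 2.95e-27 and 2.96e-13). RYK, a receptor with an inactive kinase domain that binds Wnt ligands, averaged 62.9 ± 1.32 CPM in shNEDD9 and 77.6 ± 3.44 CPM in shNTC (log2 fold change -0.30, edgeR adjusted p = 1.45e-06). ROR1, a receptor for WNT5A, averaged 12.05 ± 1.10 CPM in shNEDD9 and 9.73 ± 1.93 CPM in shNTC and was not called (edgeR adjusted p = 0.135). Its relative ROR2 had 18 counts over shNEDD9 and 29 over shNTC and was not tested.

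The genes that set how many receptors stay at the surface were lower or not called. RNF43 and ZNRF3 are membrane ubiquitin ligases that remove Frizzleds, and LGR4 and LGR5 bind R-spondins and restrain these ligases. LGR4 (ENSG00000205213, chromosome 11, 27365961 to 27472775) had 169, 175 and 187 CPM in shNEDD9, against 277, 279 and 288 CPM in shNTC. It was 1.58-fold lower with no overlap (log2 fold change -0.66, SE 0.04, edgeR adjusted p = 2.27e-76). RNF43 averaged 17.7 ± 1.56 CPM in shNEDD9 and 21.3 ± 1.91 CPM in shNTC (log2 fold change -0.32, SE 0.11, edgeR adjusted p = 0.00556). Its groups overlapped, and the call was lost with DESeq2 (adjusted p = 0.0747) and when shNEDD9 replicate 3 was left out (edgeR adjusted p = 0.0607, range over the alternatives 0.00287 to 0.0747). RNF43 shares 57.6% of its merged exon length with an unnamed gene on the same strand, which was given 7 counts. It shares 20.3% with TSPOAP1-AS1 on the opposite strand, which was given 13 counts. Reads of these shared stretches may have been dropped or mixed, so the level of RNF43 may rest on part of the gene. ZNRF3 averaged 29.1 ± 1.51 CPM in shNEDD9 and 25.8 ± 1.12 CPM in shNTC and was not called (edgeR adjusted p = 0.0854). LGR5, a marker of gut stem cells, had 22 counts over shNEDD9 and 9 over shNTC and was not tested.

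The Dishevelled genes, which code for the proteins that relay the signal from Frizzleds, included 1 gene that fell and 2 that were not called. DVL1 averaged 167 ± 9.88 CPM in shNEDD9 and 160.0 ± 7.85 CPM in shNTC, short of the threshold with a log2 fold change of 0.08 (edgeR adjusted p = 0.0818). It was called with library totals alone (0.0307), without shNEDD9 replicate 1 (0.0119) and without shNTC replicate 2 (0.0361), with edgeR adjusted p-values of 0.0119 to 0.51 over the alternatives. DVL2 averaged 39.0 ± 1.23 CPM in shNEDD9 and 36.5 ± 4.07 CPM in shNTC (edgeR adjusted p = 0.553). DVL3 was lower, at 121 ± 4.20 CPM in shNEDD9 and 145 ± 2.55 CPM in shNTC (log2 fold change -0.25, SE 0.04, edgeR adjusted p = 2.17e-08). Their summed level was 69.9 ± 2.97 RPKM in shNEDD9 and 71.5 ± 1.996 RPKM in shNTC (SD, n = 3 each), a difference within the spread between libraries.

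Within the destruction complex, APC, AXIN2 and GSK3B fell together with CTNNB1, and AXIN1 was not called. CTNNB1 (ENSG00000168036, chromosome 3, 41194741 to 41260096), the signalling and adhesion protein beta-catenin, had 334, 331 and 329 CPM in shNEDD9, against 601, 597 and 623 CPM in shNTC. The spread within each group was small beside the gap between them (1.84-fold lower, log2 fold change -0.88, SE 0.03, edgeR adjusted p = 4.26e-211). APC, the scaffold of the complex and a tumour suppressor of the colon (chromosome 5, 112707498 to 112846239), had 26.4, 26.1 and 22.5 CPM in shNEDD9, against 41.4, 42.7 and 38.0 CPM in shNTC. It was 1.64-fold lower without overlap (log2 fold change -0.71, SE 0.09, edgeR adjusted p = 5.33e-16). GSK3B, the kinase that phosphorylates beta-catenin (chromosome 3, 119821323 to 120094417), had 109, 111 and 112 CPM in shNEDD9, against 152, 140.4 and 145 CPM in shNTC. It did not overlap either (1.33-fold lower, log2 fold change -0.41, SE 0.04, edgeR adjusted p = 2.73e-19).

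The axin genes code for the scaffold that limits the complex and differed from each other. AXIN1 (chromosome 16, 287440 to 352673), which is expressed at a steady level in most cells, had 43.3, 42.5 and 39.6 CPM in shNEDD9, against 41.0, 45.2 and 38.0 CPM in shNTC. These values were interleaved and the log2 fold change of AXIN1 was 0.03 with an SE of 0.08 (edgeR adjusted p = 0.752). AXIN2, a feedback gene that beta-catenin and TCF factors induce in many tissues (ENSG00000168646, chromosome 17, 65528563 to 65561647), had 4.03, 3.94 and 4.54 CPM in shNEDD9, against 12.4, 10.7 and 14.2 CPM in shNTC. It was 3.02-fold lower with no overlap (log2 fold change -1.59, SE 0.17, edgeR adjusted p = 2.002e-19). Per kilobase, AXIN2 stood at 0.798 ± 0.0616 RPKM beside 5.58 ± 0.257 RPKM of AXIN1 in shNEDD9, and at 2.38 ± 0.341 RPKM beside 5.53 ± 0.484 RPKM of AXIN1 in shNTC (SD, n = 3 each). AXIN2 shares 25.2% of its merged exon length with the gene AC004805 on the same strand, which was given 0 counts. Reads of this shared stretch may have been dropped, which would lower the level of AXIN2 beside AXIN1. NKD1, another feedback gene of the pathway, had 32 counts over shNEDD9 and 13 over shNTC, with a log2 fold change of 0.80 that was not called (edgeR adjusted p = 0.108).

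The TCF and LEF factors bind the target genes of beta-catenin, and their makeup shifted towards LEF1. LEF1 (ENSG00000138795, chromosome 4, 108047545 to 108168956) had 177, 185 and 180.0 CPM in shNEDD9, against 93.9, 103 and 100.3 CPM in shNTC. It was 1.84-fold higher without overlap (log2 fold change 0.88, SE 0.04, edgeR adjusted p = 1.02e-85). TCF7L2, the factor that predominates in the gut (ENSG00000148737, chromosome 10, 112950250 to 113167678), had 21.8, 22.3 and 19.97 CPM in shNEDD9, against 34.2, 36.8 and 35.8 CPM in shNTC. It was 1.66-fold lower, again without overlap (log2 fold change -0.73, SE 0.09, edgeR adjusted p = 4.93e-15). TCF7, a factor best known from T cells, had 5.54, 3.31 and 3.53 CPM in shNEDD9, against 2.02, 3.77 and 1.72 CPM in shNTC. The groups overlapped at shNTC replicate 2 (log2 fold change 0.82, SE 0.28, edgeR adjusted p = 0.00467). TCF7 was no longer called with DESeq2 (adjusted p = 0.0627), nor in edgeR when shNEDD9 replicate 1 (adjusted p = 0.0624) or shNTC replicate 3 was left out (adjusted p = 0.064, range over the alternatives 0.00101 to 0.064). Part of TCF7 (2.1% of its merged exons) is shared with SKP1, an abundant gene on the opposite strand. TCF7L1 had 0 counts in shNEDD9 and 1 count in shNTC. Per kilobase, LEF1 made up 90.4 ± 0.652% of the summed level of the 4 factors in shNEDD9 and 76.9 ± 0.348% in shNTC, and TCF7L2 8.50 ± 0.406% in shNEDD9 and 22.0 ± 0.201% in shNTC (SD, n = 3 each).

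The secreted antagonists DKK1 and DKK3 were hardly detected. DKK1, which blocks LRP5 and LRP6, had 0 counts in shNEDD9 and 1 count in shNTC. DKK3 had 4 counts over shNEDD9 and 9 over shNTC.

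Further genes of the pathway were taken from 7 lists fixed by role. Over all 7, 60 of 82 genes were tested, of which 16 rose and 25 fell and 19 were not called; their median log2 fold change was -0.06 against 0.004 for all tested genes. Of all tested genes, 71.4% were called, slightly more than in these lists, and none of the lists below is read as standing apart from all genes. Of the 2 tested genes of Wnt secretion, WLS, which carries ligands to the cell surface, fell (27.3 ± 1.54 CPM in shNEDD9 and 41.6 ± 2.13 CPM in shNTC, log2 fold change -0.61) and PORCN, which attaches their lipid, was not called. Of the 6 tested antagonists and their receptors, 2 rose and 1 fell. SFRP1, a secreted decoy of Frizzleds, rose 2.03-fold (22.5 ± 2.09 CPM in shNEDD9 and 11.2 ± 1.73 CPM in shNTC), SOSTDC1, another secreted antagonist, rose 1.47-fold, and KREMEN1, a receptor of the DKK proteins, was 1.52-fold lower. The 5 genes of R-spondins and LGR6 had at most 14 counts each over all libraries and none was tested.

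Of the 16 tested genes of the destruction complex and beta-catenin turnover outside the rule, 3 rose and 6 fell; their median log2 fold change was 0.04. APC2, a relative of APC, was 2.38-fold lower (7.25 ± 0.705 CPM in shNEDD9 and 16.9 ± 1.08 CPM in shNTC), and CSNK1D, a casein kinase, 1.54-fold lower. SIAH1, a ubiquitin ligase that can degrade beta-catenin, rose 2.18-fold (12.4 ± 0.641 CPM in shNEDD9 and 5.48 ± 1.27 CPM in shNTC), and RNF146, a ligase for axin, fell by 0.41 on the log2 scale. Of the 15 tested nuclear partners of beta-catenin, 4 rose and 7 fell; their median log2 fold change was -0.12. The co-repressor genes TLE4 and TLE1 were 3.63-fold and 2.31-fold lower, and the co-activator genes BCL9L and BCL9 2.001-fold and 1.502-fold lower. TLE4 averaged 3.27 ± 0.388 CPM in shNEDD9 and 11.4 ± 1.96 CPM in shNTC, and TLE1 43.4 ± 1.68 CPM in shNEDD9 and 102 ± 3.27 CPM in shNTC. Other genes of this list went the other way or were not called. TLE3, a further co-repressor gene chosen for mention after its values were seen, rose 1.32-fold, PYGO2, a co-activator gene chosen likewise, rose by a log2 fold change of 0.09, and CREBBP and EP300 were not called.

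Of the 10 tested genes of planar cell polarity, the branch that orients cells in a sheet, 1 rose and 8 fell (35.5% of all tested genes rose and 35.9% fell); their median log2 fold change was -0.26, that of all tested genes 0.004. VANGL2, a core membrane protein of this branch, averaged 2.63 ± 0.973 CPM in shNEDD9 and 5.66 ± 0.647 CPM in shNTC (2.29-fold lower), and the other named decreases, of ANKRD6, CELSR3 and CELSR1, were 1.34-fold to 1.38-fold. The call of ANKRD6 was lost with DESeq2 (adjusted p = 0.0603) and without shNTC replicate 1 (edgeR adjusted p = 0.052, range over the alternatives 0.000828 to 0.0603).

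Of the 11 tested targets of TCF and beta-catenin outside the rule, known mainly from the gut and the embryo, 6 rose and 2 fell (35.5% of all tested genes rose and 35.9% fell); their median log2 fold change was 0.92. CCND1, a cyclin gene, and EPHB3, an ephrin receptor gene, were the 2 that fell, by 0.51 and 0.76 on the log2 scale, and are named after their values were seen. TNFRSF19, a receptor of the tumour necrosis factor family, rose 3.72-fold (3.36 ± 0.321 CPM in shNEDD9 and 0.934 ± 0.412 CPM in shNTC), SP5, a transcription factor gene, 3.44-fold (3.08 ± 0.969 CPM in shNEDD9 and 0.956 ± 0.293 CPM in shNTC), ASCL2, a stem cell factor gene, 2.20-fold and MYC 2.09-fold. These increases stood beside the 3.02-fold lower AXIN2, so the textbook targets measured here did not move in 1 direction. MYC, at 606 ± 17.3 CPM in shNEDD9 and 291 ± 8.23 CPM in shNTC, is also induced by many other pathways. TNFRSF19, SP5 and ASCL2 had 82 to 94 counts each over the 6 libraries, and their log2 fold changes had an SE of 0.36 to 0.37.

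**Figure D4:**
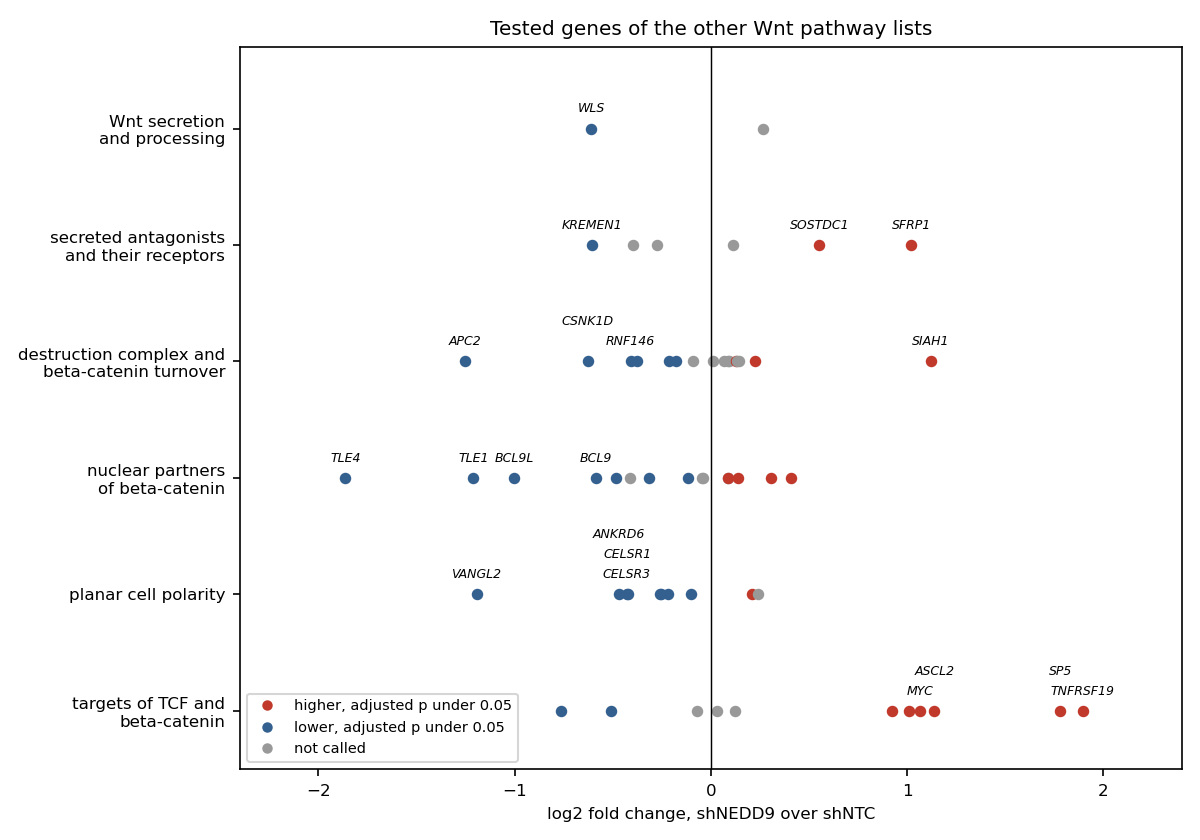
Log2 fold changes of shNEDD9 over shNTC (horizontal axis) for the tested genes of 6 lists of other Wnt pathway genes (rows). Each gene is 1 point, coloured by the call at an adjusted p under 0.05. Labels mark only the changed genes of largest fold in each list. PORCN, TLE3, PYGO2, CREBBP, EP300, CCND1 and EPHB3, also named in the text, are not labelled. The labelled targets of TCF and beta-catenin were therefore all higher, while the 2 that fell, CCND1 and EPHB3, carry no label. Of the planar cell polarity genes 8 of 10 were lower, and of the targets of TCF and beta-catenin 6 of 11 were higher and 2 lower, where 35.5% of all tested genes were higher and 35.9% lower.

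For the 9 genes called at least 2-fold, the 10 nearest tested genes were listed. Their median log2 fold change was -0.04 around FZD8, 0.21 around WNT8B, 0.395 around FZD4 and 0.42 around FZD2, which had increased. It was -0.05 around WNT5B, -0.03 around AXIN2, 0.195 around FZD7, -0.20 around WNT4 and 0.29 around WNT7B, which had decreased. Around WNT8B 6 of the 10 were higher and 0 lower, around FZD2 7 and 2, around FZD4 6 and 2, and around FZD8 4 and 3. Around each of the decreased genes WNT5B, FZD7 and WNT7B 4 were higher and 2 lower, around AXIN2 2 and 3, and around WNT4 3 and 5. Of all tested genes, 35.5% were higher and 35.9% lower. Whether neighbours changed together was not tested. Single neighbours changed more than the gene itself, in its direction, near 2 increased genes, with up to 2.57 near WNT8B (1.88 for WNT8B) and 1.555 near FZD2 (1.17 for FZD2). The same held near 2 decreased genes, with down to -1.95 near AXIN2 (-1.59 for AXIN2) and -1.78 near WNT4 (-1.29 for WNT4). Near FZD4 the largest increase of a neighbour was 1.64 (1.67 for FZD4).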

How the data were processed

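Per the labels' protocols, RNA was purified with a QIAGEN kit and libraries came from an Illumina TruSeq kit that keeps strand. The authors deposited raw counts per gene in 1 table. The submitters' processing notes name STAR 2.5.3a as well as featureCounts (Subread 1.6.2), with cutadapt 1.9 and FastQC 0.11.5, and the builds hg19 and GRCh38 without a role. Neither the annotation nor the strand setting is stated there (not given in the sources used here). All 58735 identifiers occur in GENCODE 29 (GRCh38), the source of coordinates and merged exon lengths; 27 symbols turned into dates were restored, and 1 row lacking an identifier was dropped.

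Differences were tested with edgeR 4.0.16 (glmQLFit robust, glmQLFTest) in R 4.3.3 on the counts, with TMM factors and filterByExpr (minimum count 10), and called at a Benjamini-Hochberg adjusted p under 0.05. Errors of log2 fold changes are approximate SEs; CPM are mean ± SD over 3 libraries. Floors cover counting error only. Libraries of a group differed by little more than counting noise (chi-square per degree of freedom 1.14 to 1.21, common biological coefficient of variation 1.65%). With so small a spread, small differences between the groups pass the threshold, and the labels do not say whether it reflects separate infections. The fit was also run on simulated counts that gave every gene the same coefficient of variation, 1.65%. Such a simulation cannot speak of the spread between separate infections. A marker of the luminal list is not reported here.

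The genes, lists and tests were chosen with earlier results of these data known. Every gene of the rule with 60 counts was named, with values per library for those changed at least 1.5-fold and for 8 core genes; of each further list, up to 4 changed genes of largest fold at a mean of at least 1 CPM. Promoter sequences are from RefSeq (GRCh38.p14), matched by symbol for 28 of the 38 genes. Alternatives covered the tool (DESeq2 1.42.0, limma-voom 3.58.1), the scaling (RLE, upper quartile, or none beyond totals), the filter (none, or a mean of 1 CPM), a replicate block, and leaving out each library.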

Additional observations from a re-analysis of the deposited data

How the results depend on the processing

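Over the 14 alternatives, 27 of the 37 tested Wnt pathway genes kept their direction and side of the threshold, as did 23 of the 26 called genes; WNT9A, TCF7 and RNF43 are the exceptions given above. Of the 20 further genes named by the rule, 19 did so, ANKRD6 being the exception. Of 25 other genes named, run after seeing the data, 21 did so; the exceptions are RECK (adjusted p = 0.00699 to 0.0971), CTNND2 (called without shNTC replicate 3, adjusted p = 0.0256), CDH3 (log2 fold change 0.011 without shNEDD9 replicate 3, and down to -0.145) and PORCN (-0.084 without shNTC replicate 3, and up to 0.569). The genes called higher numbered 7 to 10 (8 as reported) and those called lower 16 to 20 (18 as reported). These counts cover every gene of the rule that a setting tested, 38 as reported and up to 51 without a count filter. The count over all genes ran from 8555 with DESeq2 (of 13958 tested) to 10133 without a count filter (of 28548 tested). As reported, it was 9964 of 13958. The log2 fold change of NEDD9 ran from -1.41 to -1.36. Directions turned only among genes that were not called: FZD9 (log2 fold change -0.163, -0.118, -0.172 and -0.155 without shNEDD9 replicate 1, shNEDD9 replicate 2, shNTC replicate 2 and shNTC replicate 3, and 0.611 without shNTC replicate 1), WNT3 (-0.017 without shNEDD9 replicate 2, and up to 0.255) and AXIN1 (-0.03 without shNTC replicate 3, and up to 0.078). The cause was not tested. The median log2 fold change over the 38 genes that passed the filter, NKD1 included, was -0.275, and ran from -0.208 without shNTC replicate 1 to -0.278 with DESeq2 (-0.242 without shNEDD9 replicate 1); after a correction for length and GC content, added after seeing the data, it was -0.253.

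Replicate numbers are shared between the groups, but the labels do not say what they pair, and the deviations of same-numbered libraries correlated at only 0.003 to 0.006. With the replicate number as a block, 9834 genes were called over all genes, and 8 Wnt pathway genes were higher and 18 lower; no call of a reported gene changed. In shNTC replicate 2, the shallowest library, 3 counts equal 0.943 CPM, which limits what can be said of WNT9A, FZD2, FZD9 and TCF7.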

Other observations

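Beta-catenin also links cadherins to the actin cytoskeleton at adherens junctions, and its partners there, listed after the data were seen, are given here. Of 8 tested genes, 6 fell and 2 were not called, where 35.9% of all tested genes fell and 71.4% were called; a list of 8 genes chosen this way is not read as standing apart. CTNNA1, which codes for alpha-catenin, averaged 479 ± 10.4 CPM in shNEDD9 and 905 ± 22.9 CPM in shNTC (1.89-fold lower), and JUP, which codes for the related plakoglobin, 207 ± 5.03 CPM in shNEDD9 and 499 ± 24.6 CPM in shNTC (log2 fold change -1.26). CDH2, the gene of N-cadherin, was 10.6-fold lower. CTNND1, the gene of p120-catenin, was 1.65-fold lower, VCL, the gene of vinculin, 1.53-fold and E-cadherin (CDH1) 1.29-fold lower, while CDH3 and CTNND2 were not called. The decrease of CTNNB1 was 1.84-fold, and those of the 6 partners ran from 1.29-fold to 10.6-fold. Whether these decreases are linked was not tested.

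FZD4 also binds Norrin with the help of TSPAN12, and WNT7A and WNT7B act in vessels of the brain through ADGRA2 and RECK. NDP, the Norrin gene, had 2 counts over all libraries. TSPAN12 averaged 10.4 ± 1.61 CPM in shNEDD9, against 26.0, 24.2 and 27.4 CPM in shNTC (2.44-fold lower, edgeR adjusted p = 3.51e-28), in the direction opposite to FZD4. ADGRA2 averaged 0.917 ± 0.514 CPM in shNEDD9 and 3.12 ± 0.634 CPM in shNTC (edgeR adjusted p = 1.44e-06), and RECK 11.7 ± 0.678 CPM in shNEDD9 and 14.5 ± 1.43 CPM in shNTC (edgeR adjusted p = 0.0126). The call of RECK was lost with DESeq2 (adjusted p = 0.0971) and, in edgeR, without shNEDD9 replicate 2 (adjusted p = 0.0504), shNTC replicate 1 (0.0615) or shNTC replicate 3 (0.0618).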
